A study of Sus scrofa with 12 samples.

Results

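The regions described here are the open chromatin regions at 10 genes of glycolysis and glycogen turnover in pig muscle, compared between the Luchuan and Duroc breeds. The genes are *PYGM*, *PHKG1*, *PHKA1*, *GYS1*, *PGM1*, *PFKM*, *ALDOA*, *ENO3*, *PGAM2* and *LDHA*. A peak interval belonged to a gene when its midpoint lay in the gene body or within 10 kb of it, in the RefSeq annotation of Sscrofa11.1. This gave 295 of the 217213 deposited intervals, which formed 163 of 140081 regions after intervals common to both breeds had been merged. Symbols and positions were found for all 10 genes. ATAC-seq, in which a transposase cuts accessible DNA so that reads accumulate where chromatin is open, had been carried out on longissimus dorsi muscle from 3 Luchuan and 3 Duroc males aged 180 days. Both breeds were kept and fed alike and fasted overnight before sampling. Luchuan is a slow-growing fat breed and Duroc a lean breed, and no gene was altered and no agent was given in either. The deposited table holds 1 read count per breed and region, read here as pooled over the 3 animals, so no test between animals was possible and no value below has an error between animals.

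Glycogen is the sugar store of the muscle fiber. Glycogen phosphorylase, switched on by phosphorylase kinase, releases glucose 1-phosphate from it, phosphoglucomutase turns this into glucose 6-phosphate, and glycolysis carries it to pyruvate, which lactate dehydrogenase can reduce to lactate. Fast fibers, which dominate this muscle in pigs, rely on this route, and after slaughter the same route acidifies the meat, which is why its enzymes are followed in work on pork quality. Several steps have a muscle isozyme encoded by a gene of its own.

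Values are given as reads in Luchuan and in Duroc, followed by the log2 ratio of Luchuan to Duroc. For this ratio 1 read was added to each count and the Luchuan counts were multiplied by 1.48, which sets the median ratio of the common regions to 0. The range after a ratio is a 95% Clopper-Pearson interval of the Luchuan share of the reads, moved to the same scale. Because there is 1 count per breed and region, this range covers counting error only. The reads carry no molecular identifiers and the removal of duplicates is not given, so the range may be too narrow even for that. A region was called past the fold limit with 50 or more reads in both breeds together and a log2 ratio of 1 or more in size, which is a 2-fold difference. All regions together held 13746020 Luchuan and 20759894 Duroc reads.

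Open chromatin at these genes was lower in Luchuan for 9 of the 10, by small amounts. The gene ratios, from the reads summed over the regions of a gene, ran from -0.39 for *PGM1* to 0.08 for *PFKM*, with a median of -0.22. Over the 16986 protein-coding genes with a region the median was -0.01, with quartiles at -0.15 and 0.15, and 51.0% of them were below 0. The counting interval lay below 0 for 9 members, and it did so for 25.5% of all genes. These intervals were narrow because the members held many reads, with a median of 7094 per gene in both breeds together against 1680 over all genes. No member reached the fold limit as a gene, while 0.924% of all genes did so as lower and 2.60% as higher in Luchuan. With the counts scaled instead by the clean reads that the study states, every gene moved by the same -0.20 and *PFKM* turned to -0.12, so that its direction holds only relative to the median of all genes.

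**Figure D1:**
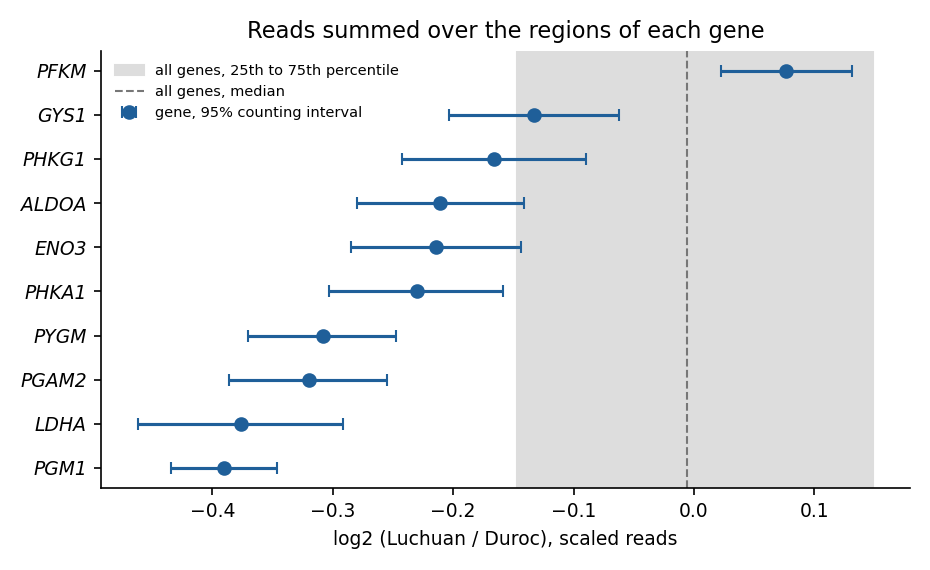
Log2 ratio of Luchuan to Duroc (x axis, scaled reads) for each of the 10 genes (y axis), with points for the reads summed over the regions of a gene and bars for the 95% counting interval. The grey band spans the 25th to 75th percentile of all genes, and 8 of the 10 points lie to the left of it while *PFKM*, at 0.08, is the 1 point to the right of 0.

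Among the 154 member regions with 50 or more reads, 14 were past the fold limit as lower in Luchuan, which is 9.09%, beside 5.22% of all such regions. None was past it as higher in Luchuan, beside 2.45% of all. The median ratio of the member regions was -0.20, and that of all regions was -0.06. The counting interval lay below 0 for 62 member regions, or 40.3%, against 19.7% of all regions, and above 0 for 2, against 11.7%. A member region held a median of 322 reads where regions of the whole table held 160, and deeper regions have narrower intervals. All 14 regions past the limit belonged to 3 genes, 9 to *PGM1*, 3 to *LDHA* and 2 to *PHKA1*. At least 1 region past the limit, in either direction, was held by 21.6% of all genes.

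**Figure D2:**
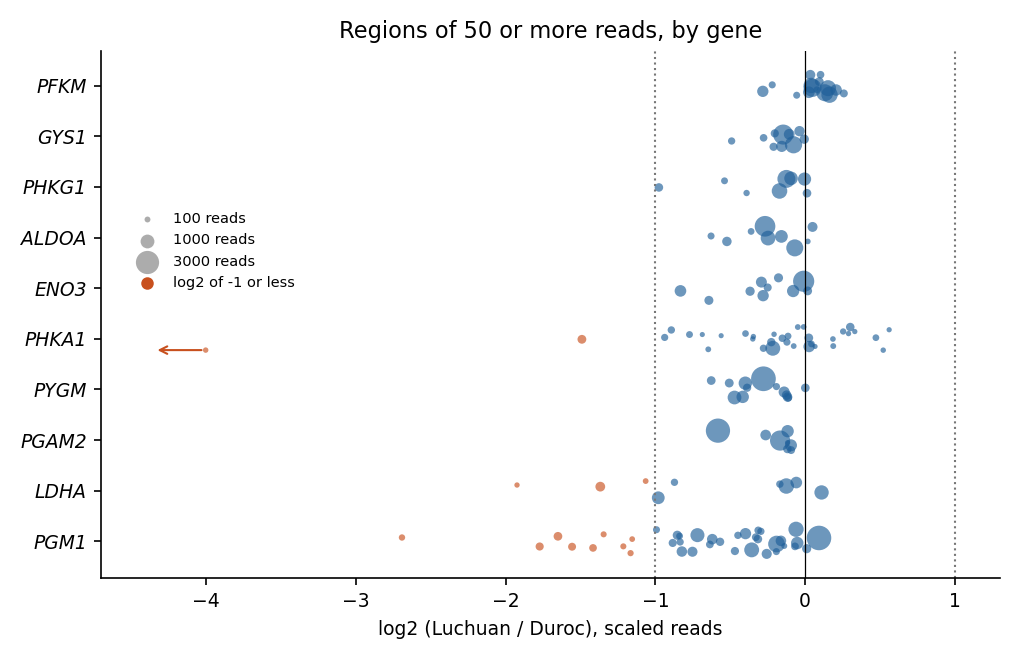
Log2 ratio of Luchuan to Duroc (x axis, scaled reads) of every member region of 50 or more reads, by gene (y axis), with point area growing with the reads of both breeds and orange for regions at or beyond -1. The orange points are found at *PGM1*, *LDHA* and *PHKA1* alone, and the arrow marks a *PHKA1* region with 0 Luchuan reads, drawn at the value that 3 reads would give.

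The regions past the limit were weak and narrow. Their median length was 211 bases and their median depth 129 reads, while the other member regions of 50 or more reads had medians of 324 bases and 336 reads. The authors' classes marked 13 of the 14 as Duroc-specific and 1 as common. These classes rest on peaks called from the same libraries as the counts, so they are no separate support for the difference. The class shares of all regions past the limit are not given here. Among the member regions of 50 or more reads, 71.4% were common, 20.8% Duroc-specific and 7.79% Luchuan-specific, close to the 65.7%, 26.0% and 8.34% of all regions of that depth. The strongest region of each gene lay between -0.58 and 0.09, and its counting interval was below 0 for 5 of the 10 genes. The share among the strongest regions of all genes is not given here, and deep regions have narrow intervals. Of the 10 strongest regions, 5 lay in the body of another gene.

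*PYGM* encodes muscle glycogen phosphorylase, the enzyme that releases sugar units from glycogen, and lies on chromosome 2 from 7409330 to 7421256. Its 13 regions held 3294 Luchuan and 6020 Duroc reads, a ratio of -0.31 (-0.37 to -0.25), and 12 of them were below 0. The strongest spanned the gene end with the higher coordinate, from 7420758 to 7422668, with 1225 Luchuan and 2193 Duroc reads and a ratio of -0.28 (-0.38 to -0.18). The lowest ratio of the gene was -0.63 (-0.98 to -0.29), at 7423823 to 7424084, from 103 and 236 reads. No region of *PYGM* lay in the body of another gene. The 7 regions with an interval below 0 lay between 7408570 and 7424084. All regions at lower coordinates than these had intervals that include 0.

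*PHKG1* encodes the catalytic subunit of muscle phosphorylase kinase, the enzyme that switches the phosphorylase on, and variation in this gene has been tied to muscle glycogen in pigs. It lies on chromosome 3 from 16822042 to 16831054. Its 8 regions held 2210 Luchuan and 3659 Duroc reads, a ratio of -0.17 (-0.24 to -0.09). All 8 also lay in the annotated body of *SUMF2* or *CHCHD2*, so the reads cannot be assigned to *PHKG1* alone. A region inside the gene, at 16829088 to 16829430, had 82 reads in Luchuan, 240 in Duroc and a ratio of -0.98 (-1.37 to -0.62), just short of the fold limit. The strongest region, from 16822361 to 16823507, had 672 and 1082 reads and a ratio of -0.13 (-0.27 to 0.01), whose interval includes 0.

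*PHKA1* encodes the muscle form of the regulatory alpha subunit of the same kinase. The gene is located on chromosome X at 58456097 to 58583216. It had the most regions, 42, and the weakest. It held 324 reads per kb of region, averaged over Duroc and scaled Luchuan, at the 29.3rd percentile of all genes and the 40.4th percentile of the 559 genes with a region on X. The summed counts were 2443 Luchuan and 4230 Duroc reads, a ratio of -0.23 (-0.30 to -0.16), and the median ratio of X genes was -0.14. Of its 34 regions with 50 or more reads, 21 were below 0 and the highest was 0.56.

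Both regions of *PHKA1* past the limit had a neighbour whose interval includes 0. The first, inside the gene from 58468838 to 58469223, had 71 Duroc reads and 0 Luchuan reads. With a floor of 3 reads set for the pooled Luchuan libraries it was 16.0-fold higher in Duroc. It had a counting interval that reached up to -3.67, a smaller difference, so 16.0-fold is not a lower bound. Its neighbour, at 58466530 to 58466805, had 58 reads in Luchuan, 72 in Duroc and a ratio of 0.25 (-0.28 to 0.77). The other, at 58583608 to 58584015, lay 0.596 kb beyond the gene end with the higher coordinate, with counts of 67 in Luchuan and 281 in Duroc, a ratio of -1.49 (-1.91 to -1.12). It sat between the strongest region of the gene, which covers that end with 432 and 741 reads and a ratio of -0.22 (-0.39 to -0.04), and a region from 58584977 to 58585357 with 141 and 205 reads and a ratio of 0.02 (-0.30 to 0.34).

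*GYS1* encodes muscle glycogen synthase, which builds the store that the other enzymes use, and lies on chromosome 6 from 54234600 to 54250211. Its 10 regions held 2656 Luchuan and 4297 Duroc reads, a ratio of -0.13 (-0.20 to -0.06). All 10 were below 0, between -0.49 and -0.01, and the interval excluded 0 for 2 of them. The region of the lowest ratio, inside the gene from 54236437 to 54236663, had 67 and 140 reads and an interval of -0.94 to -0.07. The strongest region, from 54230861 to 54232190, lay in the body of *FTL*, the ferritin light chain gene, with 841 Luchuan and 1374 Duroc reads and a ratio of -0.15 (-0.27 to -0.02).

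*PGM1* encodes phosphoglucomutase 1, which converts glucose 1-phosphate to glucose 6-phosphate. Its gene body is on chromosome 6 at 148851183 to 148918891. Its summed reads gave the lowest ratio of the 10 genes, -0.39 (-0.43 to -0.35), from 6221 Luchuan and 12032 Duroc reads in 38 regions. By the median of its regions it was at -0.59, and *LDHA* was lower at -0.93. Of these, 36 were below 0 and the interval was below 0 for 25. Without its 9 regions past the limit the ratio was -0.29 (-0.33 to -0.24).

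Inside *PGM1*, 4 neighbouring regions past the limit lay within 1.76 kb, from 148881538 to 148883295. Together they held 166 Luchuan and 852 Duroc reads, a ratio of -1.79 (-2.05 to -1.56). The largest difference among them was at 148882243 to 148882422, with 12 Luchuan and 123 Duroc reads and a ratio of -2.69 (-3.79 to -1.94). In the same gene the strongest region, at 148912168 to 148913744, had 1414 reads in Luchuan, 1957 in Duroc and a ratio of 0.09 (-0.01 to 0.19). Another strong region of the gene, at 148887645 to 148888357, had 487 and 750 reads and a ratio of -0.06 (-0.23 to 0.10). Other strong regions were lower in Luchuan, with 560 and 944 reads and a ratio of -0.19 (-0.35 to -0.04) at 148864754 to 148865725, and 302 and 735 reads and a ratio of -0.72 (-0.92 to -0.53) at 148925376 to 148926837. The remaining 5 regions past the limit lay apart from the run of 4, and 2 of them, from 148898893 to 148900213, together had a ratio of -1.27 (-1.77 to -0.84).

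Around most members the surrounding regions had a lower median ratio than all regions of 50 or more reads. Over all of these the median was -0.06, and 56.1% were below 0. The median ratio of the regions of 50 or more reads that lay 10 to 500 kb outside a gene was below 0 for 9 of the 10, at -0.28 for *ENO3*, -0.23 for *ALDOA*, -0.17 for *PYGM*, -0.16 for *GYS1* and *PGAM2*, -0.15 for *PHKG1*, -0.09 for *PHKA1*, -0.05 for *PFKM* and 0.11 for *LDHA*. The value for *PFKM* was near the median of all regions, and that for *PHKA1* was above the median of -0.23 of the X regions of this depth. Around *PGM1*, among 56 regions 10 to 500 kb outside the gene, the median ratio was -0.26 and 23.2% were past the limit as lower in Luchuan. For the other 9 genes this share lay between 3.09% at *PYGM* and 12.5% at *PHKA1*. The limit of 10 kb fell within such a stretch. The last region inside it, 9.99 kb from the gene at 148840983 to 148841402, had 139 and 347 reads and a ratio of -0.75 (-1.05 to -0.47). The next, 10.4 kb away and not counted, had 63 and 211 reads and a ratio of -1.17 (-1.61 to -0.77).

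*PFKM* encodes muscle phosphofructokinase, the main control step of glycolysis, and lies on chromosome 5 from 78475473 to 78525052. This gene was the exception among the 10. Its 15 regions held 4690 Luchuan and 6562 Duroc reads, a ratio of 0.08 (0.02 to 0.13), and 12 of them were above 0. The region with the lowest ratio, at 78516213 to 78516687, had 228 reads in Luchuan, 410 in Duroc and a ratio of -0.28 (-0.53 to -0.05), and the interval above 0 was at 78510986 to 78511746, with 622 and 820 reads and 0.16 (0.01 to 0.31). The strongest region within its 10 kb, from 78533991 to 78535121, lay in the body of *ASB8* and had 723 and 1031 reads, a ratio of 0.05 (-0.09 to 0.19). Over the 9 regions inside the gene the ratio was again 0.08.

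*ALDOA* encodes aldolase A, which splits fructose 1,6-bisphosphate, and lies on chromosome 3 from 18246036 to 18260167. Its 9 regions held 2672 Luchuan and 4563 Duroc reads, a ratio of -0.21 (-0.28 to -0.14). The strongest, from 18261499 to 18263264, lay 2.21 kb beyond the gene end with the higher coordinate, with 849 and 1509 reads and a ratio of -0.27 (-0.39 to -0.15). The lowest ratio was at 18260506 to 18260690, with 56 and 129 reads and -0.63 (-1.12 to -0.18), between the gene and that strong region. Within the gene, a region from 18252824 to 18253765 had 616 and 954 reads and a ratio of -0.07 (-0.22 to 0.08).

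*PGAM2* encodes the muscle subunit of phosphoglycerate mutase, and lies on chromosome 18 from 48693832 to 48712787. Its 8 regions held 2896 Luchuan and 5335 Duroc reads, a ratio of -0.32 (-0.39 to -0.25), and all 8 were below 0. This value rested on 1 region. The strongest, at 48713860 to 48715802 in the body of *DBNL*, had 1023 reads in Luchuan, 2261 in Duroc and a ratio of -0.58 (-0.69 to -0.48), and the other 7 lay between -0.26 and -0.09. With regions in other genes left out, *PGAM2* had a ratio of -0.16.

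*ENO3* encodes the muscle subunit of enolase, and lies on chromosome 12 from 51954614 to 51959991. Its 10 regions held 2557 Luchuan and 4377 Duroc reads, a ratio of -0.21 (-0.29 to -0.14), and 9 were below 0. Beyond its lower-coordinate end the ratio was -0.83 (-1.09 to -0.59) at 51952973 to 51953465, from 187 and 493 reads, in the body of *SPAG7*, and -0.64 (-0.98 to -0.32) at 51953790 to 51954084, from 111 and 257 reads. Both are classed as Duroc-specific. The strongest region, from 51948692 to 51950013 and also in *SPAG7*, had 998 and 1483 reads and was alike in the breeds, with a ratio of -0.01 (-0.13 to 0.11).

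*LDHA* encodes the muscle subunit of lactate dehydrogenase, and lies on chromosome 2 from 40814163 to 40827284. Its 10 regions held 1701 Luchuan and 3258 Duroc reads, a ratio of -0.38 (-0.46 to -0.29). The regions inside the gene were alike within counting error, and those on either side were lower in Luchuan. The 4 regions inside the gene, from 40823220 to 40825900, held 1300 Luchuan and 1968 Duroc reads and a ratio of -0.04 (-0.14 to 0.06). The 4 beyond the lower-coordinate end, from 40809904 to 40814047, held 373 and 1193 reads and a ratio of -1.11 (-1.29 to -0.95). The 2 beyond the other end, from 40830718 to 40832184, held 28 and 97 reads and a ratio of -1.20 (-1.89 to -0.61).

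Of the flanking *LDHA* regions, the nearest to the gene, at 40813487 to 40814047, had 93 reads in Luchuan, 357 in Duroc and a ratio of -1.37 (-1.72 to -1.05). The strongest of them, from 40811714 to 40812671, had 215 and 628 reads and a ratio of -0.98 (-1.22 to -0.76), just short of the limit. A region from 40809904 to 40810053, in the body of *LDHC*, had 9 and 55 reads and a ratio of -1.92 (-3.25 to -1.02). On the far side, the region from 40830718 to 40830931 had 22 and 70 reads and a ratio of -1.06 (-1.87 to -0.40). Among 75 regions 10 to 500 kb outside the gene the median ratio was 0.11, although regions at *LDHC*, beyond 10 kb on the lower-coordinate side, were lower in Luchuan as given further on.

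**Figure D3:**
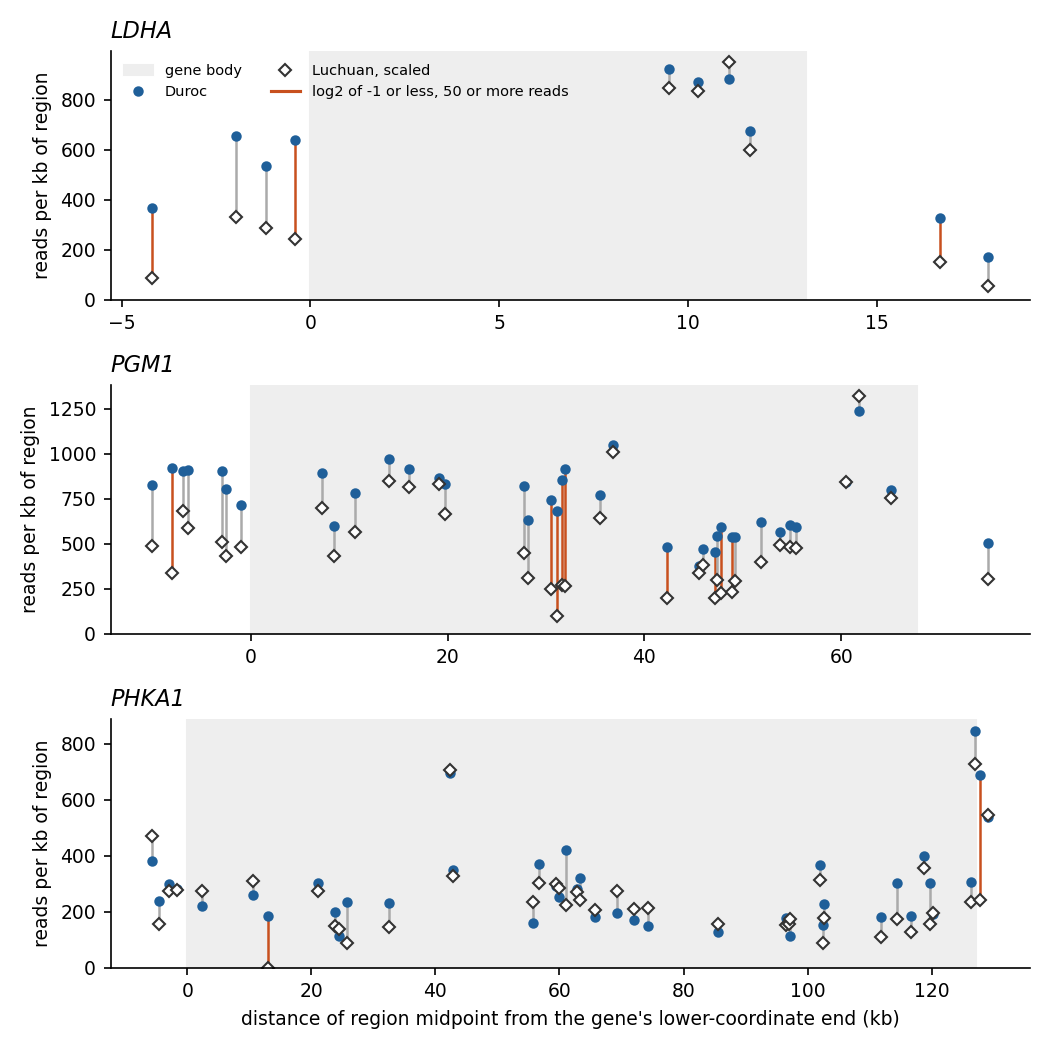
Reads per kb of each region (y axis) in Duroc (filled) and Luchuan after scaling (open) against the distance of its midpoint from the lower-coordinate end of the gene in kb (x axis), for *LDHA*, *PGM1* and *PHKA1*. Lines join the breeds, orange for regions at or beyond a log2 ratio of -1 with 50 or more reads, and the orange lines flank the *LDHA* body (grey), mark 9 regions at *PGM1*, of which 4 lie within 1.76 kb, and 2 single regions at *PHKA1*.

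The level of open chromatin was also set against genes for other isozymes of the same steps. The measure was reads in regions per kb of the gene and its 10 kb flanks, as the mean of Duroc and scaled Luchuan. The symbol *LDHB* occurs at 2 places in the annotation, and the one on chromosome 5 was used, while the one on chromosome 2, with 1 region of 8 and 25 reads, was left out. All 15 isozyme genes with a region had a lower level than the muscle gene, by a factor of 1.63 to 81.2 with a median of 5.41. *PYGM* had 170 reads per kb, while *PYGL* of liver had 11.9 and *PYGB* of brain 2.10. *GYS1* had 115 and the liver gene *GYS2* 1.73. The smallest gap was between *ENO3* with 161 and the widely expressed *ENO1* with 98.5. *ALDOC*, the brain aldolase gene, had 65.1 against 125 for *ALDOA*. Regions of neighbouring genes within the flanks count in this measure. With reads per kb of region in its place, 13 of the 15 isozyme genes were lower, the exceptions being *PHKG2* and *PHKA2*.

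**Figure D4:**
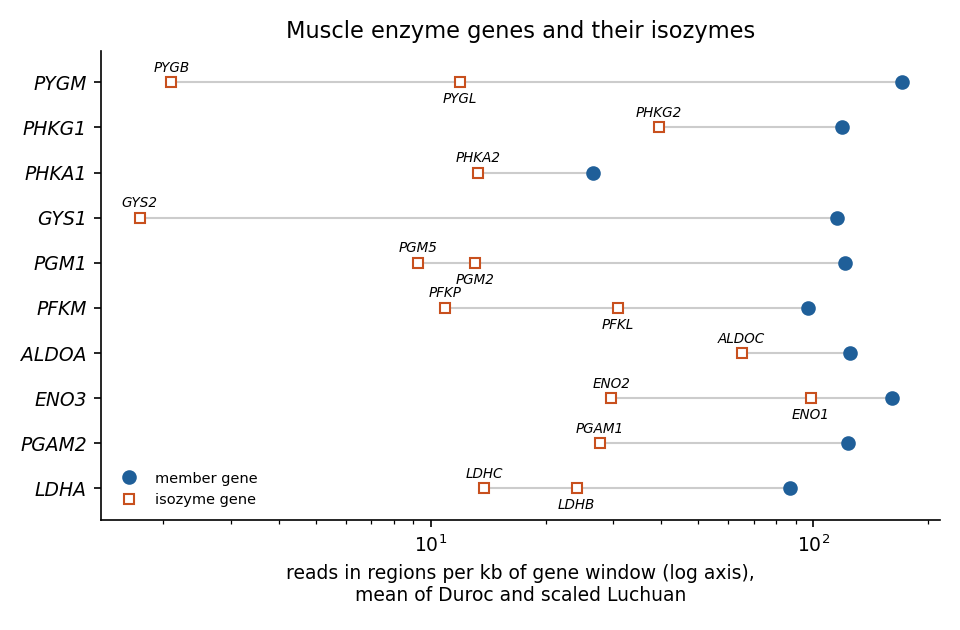
Reads in regions per kb of gene and 10 kb flanks (x axis, log scale, mean of Duroc and scaled Luchuan) for each member (filled) and its isozyme genes (open squares), 1 step per row. Every filled point lies to the right of its squares, and *GYS2*, at 1.73, and *PYGB*, at 2.10, are farthest from their muscle counterparts among the 15 genes drawn.

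Between breeds, the 15 isozyme genes had a median ratio of -0.04, with 5 intervals below 0, or 33.3% beside 25.5% of all genes, and 1 above, or 6.67% beside 22.5%. *LDHC*, the lactate dehydrogenase gene of testis beside *LDHA*, had 493 Luchuan and 1525 Duroc reads and a ratio of -1.07 (-1.22 to -0.92), with 4 of its 10 regions shared with *LDHA*. The 6 regions that were not shared had 120 and 332 reads and a ratio of -0.90 (-1.22 to -0.60). The heart-type gene *LDHB* on chromosome 5 had a ratio of -0.44 (-0.59 to -0.29), with 1 region past the limit. In the other direction, *PGM5*, a relative of *PGM1* without its catalytic role, had 1735 Luchuan and 1577 Duroc reads and a ratio of 0.70 (0.60 to 0.80), with 4 regions past the limit as higher in Luchuan. *PYGL* held 1 region past the limit as lower, with 12 and 39 reads.

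For 31 other genes of glycolysis, glycogen turnover and their regulation the median ratio was -0.01, with 9 intervals below 0 and 7 above, shares of 29.0% and 22.6% that are near the 25.5% and 22.5% of all genes. Among the other enzymes between hexokinase and pyruvate kinase, *PGK1* (phosphoglycerate kinase, on X) was at -0.48 (-0.58 to -0.39), *GPI* (glucose phosphate isomerase) at -0.36 (-0.42 to -0.30), *GAPDH* at -0.18 (-0.25 to -0.12) and *TPI1* (triose phosphate isomerase) at -0.12 (-0.19 to -0.04). The end steps were not uniformly lower. The hexokinase genes *HK1* and *HK2* were at 0.08 (-0.06 to 0.23) and -0.24 (-0.34 to -0.15). The pyruvate kinase gene *PKM* was at -0.04 (-0.10 to 0.01). Genes of glycogen synthesis went both ways, with 0.41 (0.32 to 0.51) for the branching enzyme gene *GBE1*, 0.27 (0.19 to 0.35) for *UGP2*, which makes UDP-glucose, and -0.08 (-0.15 to -0.02) for *GYG1*, the glycogenin that primes the chain. Of their 358 regions of 50 or more reads, 22 in 8 genes were past the limit as lower in Luchuan, or 6.15% beside 5.22% of all regions, and 10 in 3 genes as higher, or 2.79% beside 2.45%. At least 1 such region was held by 10 of the 31 genes, or 32.3% beside 21.6% of all genes. Those with lower regions included *HK2*, *GPI*, *PGK1*, *NHLRC1*, *PFKFB1*, *PFKFB3* and *FBP2*, and those with higher regions were *UGP2*, *PPP1R3B* and *PFKFB3*.

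Genes of the PFKFB family, whose enzymes make and remove fructose 2,6-bisphosphate, the activator of phosphofructokinase, held most of both, with 11 of the lower regions at *PFKFB1* and 8 of the higher at *PFKFB3*. *PFKFB3*, on chromosome 10, had 4400 Luchuan and 5026 Duroc reads and a ratio of 0.37 (0.31 to 0.43). The 8 regions lay near its lower-coordinate end, and the one with the most reads, at 64775092 to 64775888, had 411 reads in Luchuan, 222 in Duroc and a ratio of 1.45 (1.21 to 1.69). Its strongest region, from 64837690 to 64839217, had 782 and 1103 reads and a ratio of 0.07 (-0.07 to 0.20). A further *PFKFB3* region was past the limit as lower, with 33 and 100 reads. *PFKFB1*, on X, had 999 and 2926 reads, a ratio of -0.99 (-1.09 to -0.88), and all 16 of its regions with 50 or more reads were below 0. One of these had 70 Duroc and 0 Luchuan reads.

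**Figure D5:**
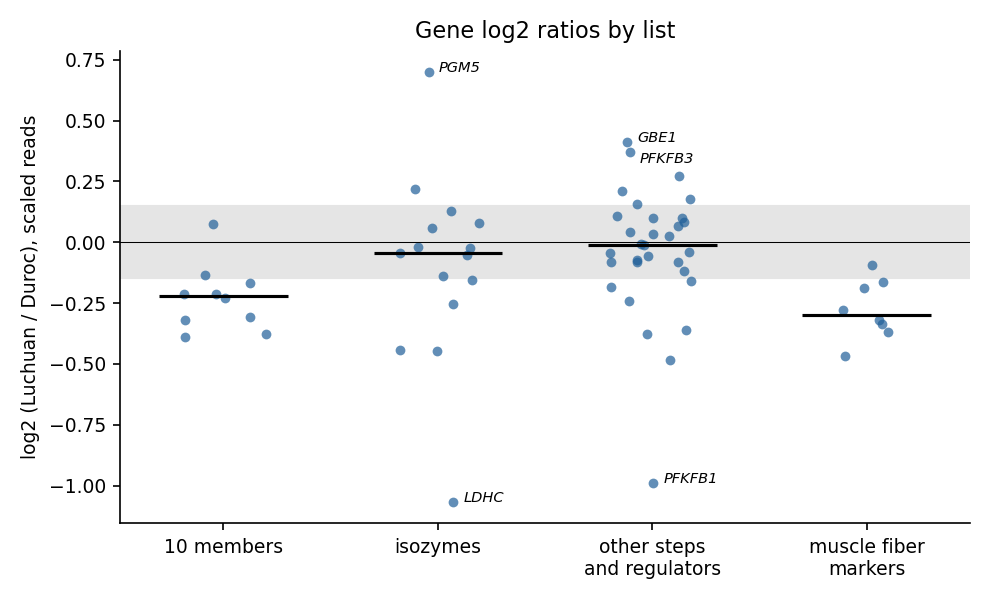
Log2 ratio of Luchuan to Duroc (y axis, scaled reads) of each gene in 4 lists (x axis), with a bar at the median of the list and a grey band for the 25th to 75th percentile of all genes. The members and the muscle fiber markers have medians of -0.22 and -0.30, and the isozymes and other genes of the pathway have medians near 0.

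Markers of skeletal muscle fibers moved in the same direction as the members. Of 9 planned markers, *MB* was not found by symbol. The 8 analysed (*ACTA1*, *CKM*, *MYLPF*, *TNNT3*, *TNNI2*, *MYBPC1*, *ATP2A1* and *RYR1*) were all lower in Luchuan, beside 51.0% of all genes. All 8 intervals were below 0, beside 25.5% of all genes. Not all are separate loci, since *TNNT3* and *TNNI2* lie close together on chromosome 2. *MYLPF* and *ATP2A1* lie within 500 kb of the member *ALDOA* on chromosome 3. The marker ratios ran from -0.47 at *CKM* to -0.09 at *ACTA1*, with a median of -0.30. Together the 8 markers held 32150 Luchuan and 57753 Duroc reads. Their level ran from 57.6 to 220 reads per kb of gene and flanks. For other cells, the adipocyte genes *ADIPOQ*, *PLIN1* and *LEP* held 313 Luchuan and 571 Duroc reads in all, with ratios of 0.07, 0.34 and -0.93. The endothelial genes *PECAM1*, *CDH5* and *KDR* held 442 and 660 reads, with -0.13, 0.01 and 0.73. The immune genes *PTPRC* and *CD3E* held 28 and 88 reads and 21 and 13 reads. *PKLR*, the pyruvate kinase gene of liver and red cells, held 399 and 517. The part of fiber content in the lower ratios of the members was not tested, and in whole muscle a smaller share of fiber nuclei and less open chromatin per nucleus cannot be told apart.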

How the data were processed

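Per the labels and the study's methods, ATAC-seq reads were filtered by the authors with Trimmomatic (version 0.36), aligned to Sscrofa11.1 with Bowtie2, and peaks were called with MACS2. The counting tool, removal of duplicates and the shift of reads for the transposase are not given in the sources used here. The deposited values used are raw counts of reads in each peak interval, 1 column per breed, not scaled for depth. Neither column names an animal, so both were read as pooled, which was not tested. The deposited fold change, average signal and p-value of the authors' own comparison were not used, and the 6 RNA samples were not analysed here. The assembly comes from a Duroc pig, and how well Luchuan reads aligned to it was not tested.

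Starts were read as counted from 0, since the shortest interval is then 150 bases, and are printed from 1. Where common intervals overlapped or adjoined, the longest stood for the merged region. Positions of 19550 protein-coding genes, without strand, exons or start sites, came from RefSeq, so promoters, exons and introns were not separated. Named regions are the strongest of each gene, those past the limit and, where none passed, the one with the largest difference. Other regions named as neighbours or for contrast, and the groups of regions at *PGM1* and *LDHA*, were chosen after their values were seen. The members and lists were chosen with earlier results of these data known. Functions were tested on simulated data. Intervals came from SciPy 1.17.1 and figures from Matplotlib 3.10.9, under Python 3.11.15 with pandas 2.3.3 and NumPy 2.4.6. Motifs in promoters were not searched, because no sequence was used here. Some genes of the lists are counted in the list totals and not reported here by name.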

Additional observations from a re-analysis of the deposited data

How the results depend on the processing

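With scaling by the clean reads that the study states, member regions past the fold limit as lower in Luchuan numbered 26 in place of 14, the median of the gene ratios was -0.42 and *PFKM* turned to -0.12, while the share of all regions past the limit as lower went from 5.22% to 8.32%. The median of the members minus that of all genes was -0.22, and again -0.22 with a running median, the 1 scaling that does not move all genes alike. With a limit of 0.5 there were 42 member regions lower and 2 higher in Luchuan, with no share of all regions past 0.5 to set beside them. Within gene bodies alone, at the limit of 1, 9 were lower. Under the other settings this number lay between 10 and 17, no member region was past the limit of 1 as higher, and 8 or 9 genes were below 0. Leaving out regions in the bodies of other genes, added after seeing the data, left *PHKG1* without a region and gave a median of -0.26 over the other 9 genes. Leaving out the regions past the limit, also added then, gave -0.25 for *LDHA*, -0.29 for *PGM1* and -0.15 for *PHKA1*. By the median of its regions in place of summed reads, *LDHA* went from -0.38 to -0.93, *PGM1* from -0.39 to -0.59, *PGAM2* from -0.32 to -0.12 and *PHKA1* from -0.23 to -0.12, and within the gene body *LDHA* was at -0.04. Of 102 gene values under alternatives, 27 left the counting interval of the main value and 1 changed sign. No paired analysis was possible because the counts carry no replicate numbers, and for the same reason no replicate could be left out. Counting intervals hold no spread between animals, so a difference outside them may lie within that spread.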
